A study of Drosophila melanogaster with 10 samples.

Results

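RNA of Drosophila melanogaster testes was compared between the 2 libraries labelled Tektin-C KD and the 2 libraries of the sa mutant, 4 of the 10 libraries in the series, across every gene. The members were taken by their titles alone, and the first pair is called the Tektin-C-labelled libraries below. Per the labels, its flies carried Tekin-CRNAi (spelled so, with RNAi repeated for replicate 2) with bam-Gal4 and UAS-dicer2 in a w background. By this label, a hairpin RNA is expressed in the germ line from bam-Gal4, which is active in dividing spermatogonia, along with added Dicer-2. These flies were kept at 22 °C for 3 days and then at 30 °C for 8 days. The other pair came from sa-/- flies kept at 22 °C for 12 days, and the labels name no allele, driver or hairpin for them. Testes of 100 pairs from males under 2 days old were pooled per replicate, and total RNA was depleted of ribosomal RNA. Both groups carry the label of enrichment for mature spermatocytes, the germ cells that have completed meiotic prophase growth. The other 3 conditions of the series, wild type (WT, 22 °C for 10 days), B9d1 KD and the libraries labelled Klp59D KD (both with the same driver and temperature shift), are used here only to place levels.

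Spermatocytes transcribe most of the genes that spermatids later use, since transcription largely stops at meiosis. Turning on this program needs tMAC, a testis form of the MMB/dREAM complex, and a set of testis TAFs, paralogs of general TATA-binding-protein-associated factors. The gene sa (spermatocyte arrest) encodes the testis paralog of Taf8, and males without it stop as mature primary spermatocytes, before the meiotic divisions and spermatid differentiation. The 2 groups share a stage label, with and without this TAF, and the comparison lists what differed in RNA between them. Whether their cells were at the same stage was not tested.

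The transcripts named by the labels were examined first. The gene sa (FBgn0002842, 3L:21405425-21406738, dm6) stood at 76.4 and 74.6 CPM in the Tektin-C-labelled libraries and 3.73 and 3.24 CPM in the sa mutant, where CPM is the count scaled to the library total and between samples. It was 21.7-fold (95% interval 18.6 to 25.5) lower in the sa mutant, and its level was 39.2 CPM in WT. The knockdown label was not borne out by its own transcript. Tektin-C (FBgn0035638, 3L:5794405-5796543), which encodes a filament protein of sperm tail microtubules, stood at 201 and 204 CPM in the Tektin-C-labelled libraries and 60.2 and 60.02 CPM in the sa mutant, and at 221 CPM in WT. Klp59D (FBgn0034827, 2R:23141999-23144497), which encodes a kinesin of the microtubule-depolymerising kinesin-13 family, stood at 29.3 and 29.97 CPM in the Tektin-C-labelled libraries and 196 and 196 CPM in the sa mutant, and at 340.2 CPM in WT. So the Tektin-C-labelled libraries had Tektin-C near the WT level and little Klp59D. In the libraries labelled Klp59D KD the reverse held, with 12.1 CPM of Tektin-C and 335 CPM of Klp59D. Every direction below is that of the library label, and which transcript the hairpin met in these flies was not tested further. Where values are written as one against the other, the Tektin-C-labelled libraries come first, the sa mutant second, each as the level of the summed sample. B9d1, the target of the other knockdown, stood at 155 against 194 CPM in the compared groups and at 9.44 CPM in B9d1 KD. Dcr-2, the gene that UAS-dicer2 adds, stood at 90.4 against 96.1 CPM, so its level was not higher in the group labelled with this transgene.

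The 2 libraries of a group held little more than counting differences. Among genes with 50 to 5000 summed counts, 5.47% lay outside the 95% binomial range within the Tektin-C-labelled libraries and 5.47% within the sa mutant, against 85.8% between the groups. The median squared deviation was 1.03 and 1.04 times the binomial value within the pairs and 143 times between them. The labels give a replicate number and do not say that the 2 libraries came from separate flies. The libraries of each group were therefore summed and counted as 1 sample, no test was made, and no p-value is given. Library totals were 27711393 and 30798942 counts in the Tektin-C-labelled libraries and 17621525 and 19807188 in the sa mutant, within a range of 17621525 to 30798942 over the series. Where values of both libraries are printed, their closeness shows technical repeatability and not the spread between flies. Intervals of folds are exact (Clopper-Pearson) 95% binomial intervals on the summed counts and, without molecular identifiers, cover counting error only. In every comparison below, genotype, hairpin expression, temperature and days of growth differ together between the groups and cannot be told apart. Fewer cells of a type and less RNA per cell cannot be told apart either, as whole testes were extracted. The strand setting of the counting is not given in the sources used here, so genes that overlap another gene are uncertain. Among those described, sa overlaps rgn, bam overlaps CG11854, twe overlaps EndoGI, Mst77F overlaps Pka-R1, S-Lap7 overlaps Cpr50Ca, w-cup overlaps Trim9, lobo overlaps dan, and Mst33A and Acp33A overlap kek2, each on the other strand. Counts within near-identical sets, such as ProtA with ProtB, achi with vis, tplus3a with tplus3b, and the Mst84D, S-Lap, Hsp70, Acp53 and Mst57D genes, may be split between members.

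The groups differed widely. Of 13831 measured genes, 7009 (50.7%) were at least 2-fold apart, the fold used throughout to call a gene higher or lower. By direction, 3748 (27.1%) were higher in the Tektin-C-labelled libraries and 3261 (23.6%) were lower. At 8-fold or more the 2 directions were unequal, with 1343 genes (9.71%) higher and 142 (1.03%) lower. These splits depend on the scaling between samples. With scaling by library size alone, the log2 fold of every gene moves down by nearly the same amount, the median over all genes moves from -0.14 to -0.79, and the counts become 2796 higher and 6083 lower. Median log2 folds of gene groups below are therefore to be read beside -0.14, and any that turns sign under that scaling is named. The 1343 genes at least 8-fold higher took 33.7% of scaled counts in the Tektin-C-labelled libraries, 3.86% in the sa mutant and 31% in WT. Their median level was 88.5 CPM in the Tektin-C-labelled libraries, 5.14 CPM in the sa mutant and 70.1 CPM in WT. In the opposite direction, the 3119 genes that were 2- to 8-fold lower took 7.01% of scaled counts in the Tektin-C-labelled libraries and 30.9% in the sa mutant.

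**Figure D1:**
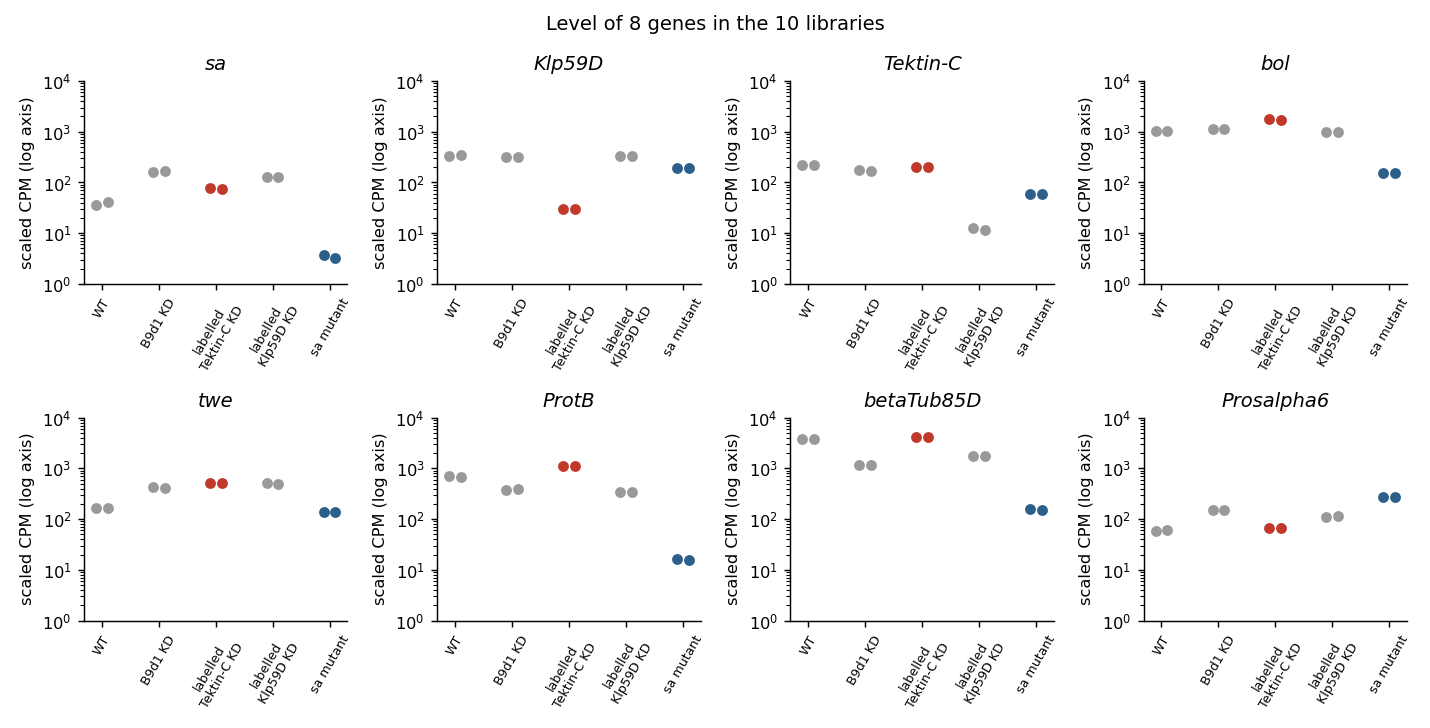
Scaled CPM (log axis) of 8 genes in all 10 libraries, with 2 points per condition, the Tektin-C-labelled libraries in red, the sa mutant in blue and the other conditions in grey. The points of a pair nearly coincide, Klp59D and not Tektin-C is low in the Tektin-C-labelled libraries, and bol, ProtB and betaTub85D stand at least 11.1-fold apart between the red and blue points.

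Among the transcription factors of the program, the testis TAF transcripts split. Of 5 testis TAFs, sa and mia were higher and can, nht and Taf12L were lower in the Tektin-C-labelled libraries. The Taf6 paralog mia stood at 164 and 165 CPM in the Tektin-C-labelled libraries and 43.7 and 42.7 CPM in the sa mutant, 3.81-fold (95% interval 3.63 to 4.0) higher. The Taf5 paralog can stood at 33.1 and 33.5 CPM in the Tektin-C-labelled libraries and 99.2 and 97.9 CPM in the sa mutant, 2.96-fold (95% interval 2.79 to 3.13) lower. Its level in the sa mutant exceeded that of both Tektin-C-labelled libraries, as did those of nht, the Taf4 paralog, at 30.4 against 105 CPM and Taf12L, the Taf12 paralog, at 62.7 against 251 CPM. Of 9 general TFIID genes, Taf1 was higher at 164 against 51.3 CPM, Taf2, Taf5 and Taf12 were lower, and 5 were within 2-fold (5 lower with library size alone). Taf8, the general counterpart of sa, stood at 39.2 against 25.1 CPM, a log2 fold of 0.64 that becomes -0.03 with library size alone.

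The tMAC transcripts were closer between the groups. Of 9 subunit genes, 6 were within 2-fold, with a median log2 fold of -0.38 (with library size alone 6 were lower). The transcript of aly, which encodes the Mip130-related subunit, stood at 58.2 and 60.6 CPM in the Tektin-C-labelled libraries and 76 and 79 CPM in the sa mutant, and comr, which encodes another subunit found in spermatocytes, stood at 37.4 against 32.4 CPM. Their log2 folds were -0.38 and 0.21, and that of comr turned to -0.46 with library size alone. Outside the 2-fold range, topi, a zinc finger subunit, was higher at 162 against 45 CPM, and achi, a TGIF-type homeodomain subunit, and Caf1-55, a histone-binding subunit shared with other chromatin complexes, were lower at 39.3 against 106 CPM and 32.6 against 151 CPM. The testis bromodomain protein gene tbrd-2 was higher at 255 against 97.2 CPM, as were the Plus3-domain genes tplus3a at 17.6 against 5.08 CPM and tplus3b at 38.5 against 7.58 CPM. With library size alone the log2 fold of tbrd-2 fell from 1.39 to 0.72, under 2-fold, and the 5 genes of this group went from 3 higher and none lower to 2 higher and 1 lower. Their relative tbrd-1 stood at 218 against 142 CPM, a log2 fold of 0.62 that becomes -0.05 with library size alone, and tbrd-3 at 32.9 against 61.7 CPM. None of 6 genes of repressors that act in spermatocytes, among them kmg (94.8 against 99.2 CPM) and dany (19.99 against 17.8 CPM), was 2-fold apart (1 was lower with library size alone).

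Genes for entry into the meiotic divisions showed both directions. Of 12 genes, 5 were higher and 3 were lower, and the median log2 fold of 0.56 became -0.11 with library size alone, which left 2 higher. The RNA-binding protein gene bol (FBgn0011206, 3L:9097629-9134405), which is needed for translation of Twine, stood at 1755 and 1735 CPM in the Tektin-C-labelled libraries and 157 and 157 CPM in the sa mutant. Its level was 11.1-fold (95% interval 10.9 to 11.4) higher, and in WT it was 1028 CPM. The gene twe, the meiotic Cdc25 phosphatase that starts the divisions, stood at 515 and 517 CPM in the Tektin-C-labelled libraries and 138 and 140.1 CPM in the sa mutant, 3.71-fold (95% interval 3.62 to 3.82) higher. Both Tektin-C-labelled libraries lay above the WT level of 166 CPM, and both sa libraries below it. Also higher were polo, a mitotic and meiotic kinase, at 686 against 260.3 CPM, Syp at 685 against 273 CPM and CycB3 at 131 against 54.6 CPM. CycB, the cyclin partner of Cdk1, stood at 250.0 against 244 CPM and fest, which acts in Cyclin B translation, at 824 against 415 CPM. The lower genes were Cdk1, the kinase itself, at 29.6 against 136 CPM, Rbp4, an RNA-binding repressor of Cyclin B translation, at 85.1 against 368 CPM and mr, an anaphase-promoting complex subunit, at 179 against 387 CPM. So the transcripts around this transition went both ways, and bol had the largest log2 fold of the 12, 3.48.

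Cytokinesis genes were mixed as well, with 3 of 12 higher and 5 lower (2 and 6 with library size alone). The share of higher genes among them was near the 27.1% of all genes. That of lower genes was above the 23.6% of all genes, but with scaling by RLE factors only 2 were lower. The kinesin Klp3A of the central spindle was higher at 622 against 146 CPM, as was fwd, a phosphatidylinositol 4-kinase, at 508 against 110.3 CPM, while pav, the kinesin of centralspindlin, was lower at 36.3 against 126 CPM. Among 9 genes of male meiotic chromosomes, mei-S332, the shugoshin that protects sister chromatid cohesion, was higher at 989 against 284 CPM, and SMC1, a cohesin subunit, was lower at 64.8 against 223 CPM. The median over these 9 was 0.16, or -0.51 with library size alone.

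Genes of stem cells and spermatogonia were lower or within 2-fold. Of 15 genes, 8 were lower (11 with library size alone) and none was higher, with a median log2 fold of -1.17. The gene nanos, a translational repressor of germline stem cells, stood at 9.7 and 10.4 CPM in the Tektin-C-labelled libraries and 49.5 and 48.7 CPM in the sa mutant, 4.88-fold (95% interval 4.43 to 5.4) lower. The gene tej, a piRNA pathway component, stood at 4.28 against 21.4 CPM, and vret, another, at 20.9 against 71.1 CPM. The differentiation factor bam, whose promoter drives the hairpin, stood at 9.3 and 9.52 CPM in the Tektin-C-labelled libraries and 38.8 and 38.4 CPM in the sa mutant, 4.1-fold (95% interval 3.69 to 4.55) lower, and at 5.93 CPM in WT. Of 20 genes of DNA replication and mitosis, 11 were within 2-fold, 3 were higher and 6 were lower (1 and 9 with library size alone). Their median log2 fold was -0.21, near the -0.14 of all genes, or -0.87 with library size alone. Among the lower ones were the replicative helicase gene Mcm5 at 10.7 against 45.1 CPM and PCNA, the sliding clamp, at 12.6 against 33.7 CPM. CycE, among the higher ones, stood at 40.9 against 5.91 CPM, and its log2 fold of 2.78 was the largest of the 20.

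Genes for sperm structure were higher throughout. All 9 Mst genes of the sperm tail, which encode small proteins of the tail sheath and dense fibres or their relatives, were higher, with a median log2 fold of 3.02. Mst87F stood at 1298 and 1300.2 CPM in the Tektin-C-labelled libraries and 198 and 197 CPM in the sa mutant, 6.59-fold (95% interval 6.45 to 6.74) higher. Its WT level was 3225 CPM, above both groups. The same order, WT above the Tektin-C-labelled libraries above the sa mutant, held for Mst84Db at 8372, 1798 and 217 CPM. The largest fold of the group was that of Mst36Fa, at 197 against 1.92 CPM. All 8 measured genes of sperm chromatin proteins were higher, with a median of 3.91. The protamine-like gene ProtB (FBgn0013301, 2L:14882101-14883721) stood at 1124 and 1138 CPM in the Tektin-C-labelled libraries and 16.2 and 15.5 CPM in the sa mutant. It was 71.4-fold (95% interval 66.5 to 76.8) higher, and its WT level was 698 CPM. Its near-identical neighbour ProtA stood at 325 against 23.1 CPM, so part of the counts of each may belong to the other. Mst77F, a linker-histone-like protein of the sperm nucleus, stood at 4038 and 4058 CPM in the Tektin-C-labelled libraries and 162 and 162 CPM in the sa mutant, 25-fold (95% interval 24.4 to 25.5) higher. Tpl94D, a transition protein that replaces histones before protamines, stood at 573 against 47.3 CPM.

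The sperm leucyl aminopeptidases, abundant proteins inside the mitochondrial derivatives of the sperm tail, were higher in 8 of 8, with a median log2 fold of 3.64. S-Lap7 stood at 9206 and 9311 CPM in the Tektin-C-labelled libraries and 526 and 533 CPM in the sa mutant, 17.5-fold (95% interval 17.3 to 17.7) higher, and at 9086 CPM in WT. S-Lap5 had the smallest fold of the 8, at 252 against 67.3 CPM. Summed over the group, the level was 34334 to 34469 CPM in the Tektin-C-labelled libraries and 2521 to 2529 CPM in the sa mutant. All 17 measured cup and comet genes, which are known to be transcribed in elongating spermatids and whose RNA sits at the spermatid ends, were higher, with 16 of 17 past 2-fold under library size alone. The sum of the cup and comet list was 8298 to 8312 CPM in the Tektin-C-labelled libraries and 882 to 887 CPM in the sa mutant. In WT it was 7826 to 7843 CPM. The transcript of w-cup stood at 1549 and 1555 CPM in the Tektin-C-labelled libraries and 36.5 and 36.7 CPM in the sa mutant, and its fold was 42.4-fold (95% interval 40.4 to 44.5). That of soti, an inhibitor of the ubiquitin ligase that acts at individualisation, stood at 1019 against 126 CPM, while s-cup, at the low end, stood at 3.36 against 1.05 CPM. Of 10 other spermatid genes, 7 were higher and none was lower (1 lower with library size alone). The sperm tail gene dj stood at 1189.7 against 72.2 CPM and janB at 431 against 25.1 CPM, although janB overlaps janA on the same strand. The genes nmd, which is needed for mitochondrial aggregation in spermatids, at 119 against 205 CPM and janA, at 241 against 172 CPM, were within 2-fold.

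**Figure D2:**
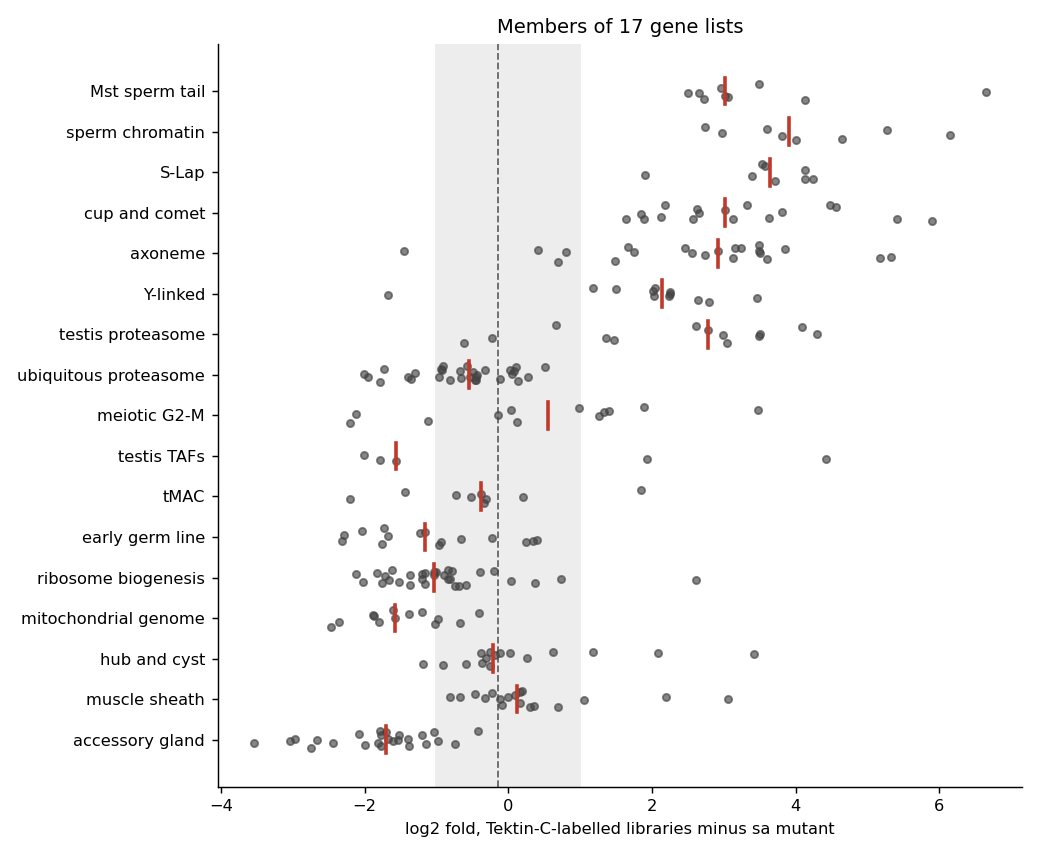
Log2 fold of each measured member of 17 gene lists, the Tektin-C-labelled libraries minus the sa mutant, with 1 point per gene, a red bar at each list median, a dashed line at the median of all 13831 genes (-0.14) and grey shading for folds under 2. The lists of sperm structure lie to the right of the shading, testis TAFs and meiotic genes lie on both sides, and accessory gland and mitochondrial genome transcripts lie to the left or in it.

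Axonemal genes followed the sperm genes with exceptions. Of 21, 17 were higher (16 with library size alone) and 1 was lower, with a median log2 fold of 2.92. Dic3, a dynein intermediate chain gene, stood at 75.6 and 73.3 CPM in the Tektin-C-labelled libraries and 1.58 and 2.03 CPM in the sa mutant, 40.9-fold (95% interval 33.1 to 51.2) higher. The dynein light chain gene robl37BC stood at 253 and 265 CPM in the Tektin-C-labelled libraries and 6.71 and 7.49 CPM in the sa mutant, 36.3-fold (95% interval 32.6 to 40.6) higher, and the axonemal dynein heavy chain gene Dnah3 at 245 against 17 CPM. The exception, Dhc93AB, a dynein heavy chain gene, was measured at under 1 CPM in both groups (0.315 against 0.929). The Y-linked fertility genes include large dynein heavy chains, and 11 of 12 Y-linked genes were higher (9 with library size alone), with a median of 2.14. The dynein gene kl-2 stood at 88.4 and 86.9 CPM in the Tektin-C-labelled libraries and 7.63 and 8.12 CPM in the sa mutant, 11.1-fold (95% interval 10.00 to 12.4) higher, and kl-5 at 154 against 32.4 CPM. Of these genes, kl-3 had the smallest difference among the higher ones, at 123 against 54.4 CPM. FDY, a Y copy of the autosomal gene vig2, was lower, at 34.8 and 32 CPM in the Tektin-C-labelled libraries and 107 and 106 CPM in the sa mutant.

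Of 8 measured tubulins 3 were higher, 1 was lower and 4 were within 2-fold (2 higher and 2 lower with library size alone). Their median log2 fold of 0.08 became -0.58 with library size alone. The testis-specific betaTub85D (FBgn0003889, 3R:9408383-9410282), the beta-tubulin of the meiotic spindle and sperm axoneme, stood at 4151 and 4156 CPM in the Tektin-C-labelled libraries and 156 and 154 CPM in the sa mutant. It was 26.8-fold (95% interval 26.2 to 27.4) higher, and its WT level was 3726 CPM. The widely used alphaTub84B stood at 1612 against 1385 CPM and gammaTub23C at 27.3 against 28.6 CPM, both within 2-fold, while betaTub97EF was lower at 5.08 against 13.9 CPM. The testis gamma-tubulin ring proteins showed the same contrast with their general counterparts. The transcript of t-Grip91 stood at 534 and 531 CPM in the Tektin-C-labelled libraries and 7.5 and 9.01 CPM in the sa mutant, 64.1-fold (95% interval 58.1 to 71) higher, t-Grip128 at 76.6 against 2.15 CPM and t-Grip84 at 809 against 93.8 CPM. Grip91, Grip128 and Grip84, which serve in other tissues, stood at 26.3 against 51.6 CPM, 71.7 against 141 CPM and 117 against 165 CPM, each within 2-fold but past it with library size alone. Of 14 kinesins, 4 were higher and 7 lower (2 and 9 with library size alone). The share of higher kinesins was near the 27.1% of all genes, and that of lower kinesins was above the 23.6%. Klp59D is among the lower ones and had the most negative log2 fold of the 14, -2.72. Klp59C, the neighbour of Klp59D in the kinesin-13 family, was higher at 603 against 113 CPM, and Khc, the conventional kinesin heavy chain, was lower at 78 against 326 CPM. Of 15 centriole genes, 4 were higher and 3 lower (median 0.18, or -0.49 with library size alone), shares near the 27.1% and 23.6% of all genes. SAK, the Plk4 kinase that starts centriole duplication, stood at 296 against 82.4 CPM and ana3 at 80.00 against 366 CPM. Of 7 measured genes of the cilium transition zone, dila, Cby and Cep290 were higher, and the median of 0.13 became -0.54 with library size alone, when none passed 2-fold upward.

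Many general proteins have a testis paralog, and these pairs contrast genes within a function. In 37 measured pairs, the testis member was higher in 23 and lower in 7. Its log2 fold was above that of the general member in 30 pairs and below it in 7, with medians of 2.37 for testis members and -0.96 for general members. Of the 33 general members, 1 was higher and 13 were lower, beside 23.6% of all genes lower. These counts depend on the scaling. With library size alone more general members were lower, such as Taf6 (log2 fold -0.99, then -1.66) and Tom20 (-0.83, then -1.50). Fewer testis members were then higher, as Prosbeta2R2 went from 1.36 to 0.69. These 37 pairs were chosen with earlier results of these data known, so their counts are a description. They include sa with Taf8, and sa is the gene named by the mutant label. Another 32 pairs were taken after their values were seen, and the pair of ATPsynbetaL with ATPsynbeta is in both sets. Their counts, 30 testis members higher and 32 above their general member, likewise only describe pairs picked by name.

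In the proteasome, the 20S core and its regulatory particle both have testis forms. Of 13 measured testis subunits 10 were higher and none was lower (8 and 1 with library size alone), with a median log2 fold of 2.79. The 20S alpha subunit gene Prosalpha6T stood at 387 and 383 CPM in the Tektin-C-labelled libraries and 35.4 and 32.6 CPM in the sa mutant, 11.3-fold (95% interval 10.8 to 11.9) higher. Prosalpha6, which it replaces during spermatogenesis, stood at 66.3 and 68 CPM in the Tektin-C-labelled libraries and 271 and 271 CPM in the sa mutant, 4.03-fold (95% interval 3.88 to 4.19) lower. The 2 forms thus differed in opposite directions, and their WT levels were 340.1 CPM for Prosalpha6T and 59.3 CPM for Prosalpha6. Prosbeta5R2 stood at 578 against 33.9 CPM and its general form Prosbeta5 at 64.3 against 223 CPM. Of 30 ubiquitous subunits 7 were lower and none was higher (21 lower with library size alone), and the median was -0.55. The share of lower genes among them was thus near the 23.6% of all genes. The members within 2-fold included the testis forms Rpt3R, Rpt4R and Rpt6R of the regulatory particle, at log2 folds of -0.62, -0.22 and 0.66, the last of which becomes -0.01 with library size alone.

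**Figure D3:**
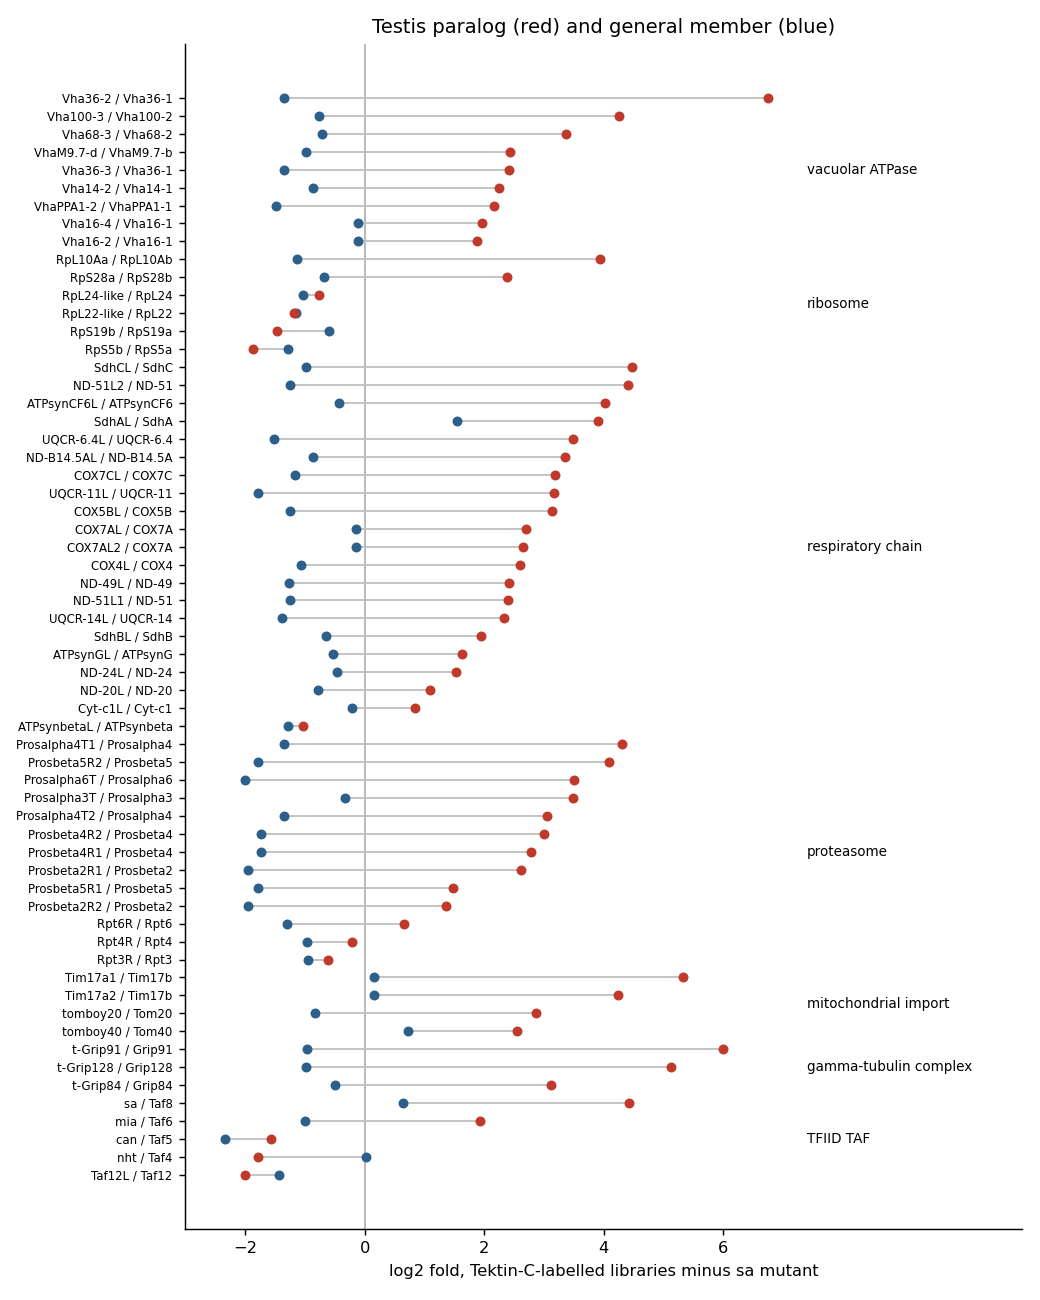
Log2 fold, the Tektin-C-labelled libraries minus the sa mutant, of testis paralogs (red) and their general members (blue), with 1 line per pair, sorted within 7 functions. Red points lie to the right of blue points in all pairs of the vacuolar ATPase, the proteasome, mitochondrial import, the gamma-tubulin complex and the respiratory chain, while TAF and ribosome pairs lie both ways.

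Testis paralogs of mitochondrial and vacuolar ATPase families, looked at after their values were seen, were mostly higher as well. Of 26 testis paralogs of respiratory chain and ATP synthase subunits 23 were higher and 1 was lower (20 and 2 with library size alone), with a median log2 fold of 2.67. SdhCL, the paralog of succinate dehydrogenase subunit C, stood at 299 and 297 CPM in the Tektin-C-labelled libraries and 13.6 and 13.2 CPM in the sa mutant, 22.2-fold (95% interval 20.6 to 24.1) higher, and SdhC at 21 against 41.3 CPM. Of 64 general subunits 3 were higher and 13 were lower (0 and 31 with library size alone), with a median of -0.32. The share of lower genes among these general subunits was thus not above the 23.6% of all genes. The paralog ATPsynbetaL was lower, at 97.7 against 199 CPM. In the vacuolar ATPase, a proton pump, Vha36-2 stood at 259 and 258 CPM in the Tektin-C-labelled libraries and 2.28 and 2.46 CPM in the sa mutant, 109-fold (95% interval 90.6 to 132) higher, while Vha36-1 was lower at 23.9 against 61.4 CPM. The import channel paralog Tim17a1 stood at 94.4 against 2.31 CPM and the receptor paralog tomboy20 at 410.1 against 56.3 CPM. Of the general members in the measured pairs, 2 of 7 for the vacuolar ATPase and 0 of 3 for import were lower, beside 23.6% of all genes. With library size alone, all of these 7 except Vha16-1 (log2 fold -0.78) were lower. For import, Tom20 (-1.50) was then lower, and Tom40 and Tim17b were not. Among glycolytic paralogs 8 of 9 were higher, with the aldolase relative Ald2 at 412 against 17.3 CPM and the phosphoglycerate mutase Pglym87 at 805 against 91.3 CPM. The exception, Gapdh2, at 81.3 against 169 CPM, is a widely expressed glycolytic enzyme and not limited to testis. The tubulin ligase-like (TTLL) genes, whose products add amino acids to tubulin, were also listed after the values were seen. They were higher in 7 of 11 (6 with library size alone), with TTLL6A at 888 against 18.8 CPM.

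Ribosomal protein paralogs did not follow this rule. Of 12 such genes, a list also made after the values were seen, 3 were higher and 7 were lower (3 and 9 with library size alone). RpL10Aa stood at 356 and 350.0 CPM in the Tektin-C-labelled libraries and 23.8 and 22.6 CPM in the sa mutant, 15.3-fold (95% interval 14.4 to 16.2) higher, while RpS5b, a paralog known from the germ line, stood at 54.5 and 57.6 CPM in the Tektin-C-labelled libraries and 198 and 211 CPM in the sa mutant, 3.65-fold (95% interval 3.5 to 3.81) lower.

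Genes of late spermatid steps were partly higher. Of 14 genes of individualisation, the step that separates the spermatids, 8 were higher and 2 were lower (6 and 4 with library size alone), with a median of 1.19. The F-box gene ntc stood at 374 against 50.2 CPM and jar, a myosin VI of the individualisation complex, at 337 against 61.6 CPM. Dronc, the initiator caspase, was lower at 26.8 against 108 CPM, and was singled out after its value was seen. Of 9 genes of mitochondrial shape 3 were higher (median 0.38, or -0.29 with library size alone, when 1 was higher and 3 lower). The mitofusin fzo, which fuses the spermatid mitochondria, stood at 735 and 731 CPM in the Tektin-C-labelled libraries and 86.2 and 88.3 CPM in the sa mutant, 8.4-fold (95% interval 8.13 to 8.67) higher. Its ubiquitous counterpart Marf stood at 135 against 146 CPM.

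The genes that were lower in the Tektin-C-labelled libraries, and so higher in the sa mutant, included many of growth. Of 31 genes of ribosome biogenesis 17 were lower and 1 was higher, with a median log2 fold of -1.03. NHP2, a component of box H/ACA ribonucleoproteins, stood at 8.59 and 7.65 CPM in the Tektin-C-labelled libraries and 34.6 and 35.7 CPM in the sa mutant, 4.35-fold (95% interval 3.89 to 4.87) lower. The rRNA methyltransferase gene Fib stood at 8.85 against 27.3 CPM and nop5, of the box C/D particle, at 20.7 against 67.7 CPM, both of which overlap annotated snoRNA genes on the same strand. The exception was Rrp6, the exosome nuclease, at 686 against 112 CPM. All 73 general cytosolic ribosomal protein genes, chosen as a family after the values were seen, had negative log2 folds, from -1.91 to -0.25, and 45 were lower. RpL8, of the large subunit, stood at 135 and 138 CPM in the Tektin-C-labelled libraries and 422 and 426 CPM in the sa mutant, 3.1-fold (95% interval 3.02 to 3.19) lower, with 461 CPM in WT. The WT level was thus near that of the sa mutant for this gene, and the family sum was 15089 to 15260.5 CPM in the Tektin-C-labelled libraries, 30196 to 30576 CPM in the sa mutant and 28317 to 28708 CPM in WT. Mitochondrial ribosomal proteins, another such family, had 32 of 70 members lower and none higher. Of 224 snoRNAs, also listed after the values were seen, 81 were lower and 11 were higher. Of the genes of insulin, TOR and Myc signalling 3 of 13 were lower and none was higher, a share near the 23.6% of all genes, with mTor at 36.1 against 147 CPM. With library size alone the lower members of these groups numbered 26 for ribosome biogenesis, 72 for ribosomal proteins, 58 for mitochondrial ribosomal proteins, 134 for snoRNAs and 7 for signalling.

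Dosage compensation raises X-linked transcription in males through the MSL complex. Of its 7 genes 5 were lower (6 with library size alone) and none was higher, with a median of -1.23. The helicase gene mle stood at 39 and 37 CPM in the Tektin-C-labelled libraries and 154 and 155 CPM in the sa mutant, 4.07-fold (95% interval 3.87 to 4.29) lower, and the RNA lncRNA:roX2 at 21.3 against 62.3 CPM. The other RNA of the complex, lncRNA:roX1, stood at 105 against 103 CPM.

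Of 13 protein-coding transcripts of the mitochondrial genome 10 were lower (13 with library size alone) and none was higher, with a median of -1.58. The NADH dehydrogenase subunit transcript mt:ND3 stood at 226 and 216 CPM in the Tektin-C-labelled libraries and 1233 and 1202 CPM in the sa mutant, 5.51-fold (95% interval 5.4 to 5.63) lower. The cytochrome oxidase subunit transcript mt:CoI stood at 7903 and 7937 CPM in the Tektin-C-labelled libraries and 12582 and 12571 CPM in the sa mutant, within 2-fold. All counts on this genome made up 2.21% of the counts of the Tektin-C-labelled libraries, 7.55% of those of the sa mutant and 7.49% of those of WT. The share was 1.76% and 2.75% in the other knockdowns, which were also kept at 30 °C, so the sa mutant and WT stood above all 3 knockdowns. Its part in the other results was not tested. Leaving out structural RNA genes and the mitochondrial genes together gave 6916 genes at least 2-fold apart.

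The Tektin-C-labelled libraries came from flies at 30 °C, a difference that cannot be told apart from genotype, hairpin expression and days of growth. Heat shock genes are therefore only described. Of 24 measured genes 10 were higher and 4 were lower, and the median of 0.62 became -0.05 with library size alone, when 8 were higher and 5 lower. Hsp26, a small heat shock protein gene, stood at 325 and 321 CPM in the Tektin-C-labelled libraries and 1787 and 1818 CPM in the sa mutant, 5.59-fold (95% interval 5.49 to 5.68) lower, and Hsp27 and Hsp68 were lower too, at 108 against 523 CPM and 294 against 973 CPM. Hsp83, the fly Hsp90, stood at 3079 against 2679 CPM. Higher were Hsc70-1 at 102 against 5.43 CPM, Hsc70-2 at 814 against 141 CPM and the chaperonin paralogs Hsp60B, Hsp60C and Hsp60D, the last at 345 against 33.6 CPM. The near-identical Hsp70 genes went both ways, from 3.13 against 0.31 CPM for Hsp70Bc to 1.3 against 4.42 CPM for Hsp70Ba. The part of temperature in any result was not tested.

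The largest differences by fixed rule, among genes with at least 16 CPM in the higher group, are given next. The largest positive fold of a gene with a full name was that of lobo (FBgn0083946, 3R:25169565-25193776), which encodes a subunit of the dynein regulatory complex of the axoneme. It stood at 371 and 371 CPM in the Tektin-C-labelled libraries and 2.9 and 2.34 CPM in the sa mutant, 143-fold (95% interval 119.7 to 171) higher, and at 128 CPM in WT. Cap-G, a condensin subunit, stood at 581 and 582 CPM in the Tektin-C-labelled libraries and 8.38 and 8.43 CPM in the sa mutant, 69.2-fold (95% interval 62.7 to 76.5) higher, and at 89.7 CPM in WT, although an annotated transposon lies within it. The other condensin and SMC genes, a family looked at afterwards, did not follow, with 2 of 11 higher and 4 lower in all (2 and 6 with library size alone). The gene salto (FBgn0061197, 2R:12302544-12306269) stood at 5789 and 5735 CPM in the Tektin-C-labelled libraries and 84.4 and 86.6 CPM in the sa mutant, 67.3-fold (95% interval 65.3 to 69.5) higher. Also among the 15 highest were Adgf-E, a member of the adenosine deaminase growth factor family, at 247 against 3.7 CPM, t-cup at 85.3 against 1.38 CPM, the testis phosphatase PpN58A at 183 against 3.3 CPM and the outer dynein arm light chain gene ODA-Dnal1 at 35.8 against 0.702 CPM. HP1e, a heterochromatin protein relative of the male germ line, stood at 16.9 against 0.33 CPM, Arr1, a visual arrestin, at 46.2 against 0.909 CPM, and TbCMF46 at 32.7 against 0.558 CPM. Among genes named only by number, CG43371 had the largest fold, at 29.8 against 0.0826 CPM, followed by CG33223, which spans several chorion genes on the other strand, at 127 against 0.64 CPM. CG17217, CG3748 and CG10317 stood at 129.8 against 0.971 CPM, 269.6 against 2.27 CPM and 626 against 5.91 CPM.

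In the other direction, 2 X-linked genes had no count in the Tektin-C-labelled libraries. The gene sordd2 (FBgn0052581, X:15796908-15799162) had 26.9 and 25.8 CPM in the sa libraries, and RabX2 (FBgn0030200, X:10417429-10418219), a Rab-family GTPase gene, had 25.3 and 25.4 CPM. A count of 0 in the summed sample allows up to 3 counts, or 0.0629 CPM, so sordd2 was at least 418-fold lower and RabX2 at least 403-fold lower. Both were near 0 in the other knockdowns too, at 0.0519 and 0.121 CPM for sordd2 and at 0 and 0.0347 CPM for RabX2, while WT had 7.03 and 11.5 CPM. All 3 knockdowns share a driver and a temperature. These, and any genetic background that the knockdowns share, cannot be told apart here. The next largest were Cyp6a2, a detoxifying cytochrome P450, at 2.7 and 2.35 CPM in the Tektin-C-labelled libraries and 47.7 and 48.6 CPM in the sa mutant, and Ir85a, of the ionotropic receptor family, at 1.66 against 22 CPM. Cyp4g1, which makes cuticular hydrocarbons in oenocytes, stood at 10.9 against 98.5 CPM, AttC, an antibacterial peptide, at 2.94 against 31.8 CPM and Tsp42Ei, a tetraspanin, at 6.94 against 56.2 CPM. Others of the 15 in this direction were Dhdds, of dolichol synthesis, at 7.19 against 62.6 CPM, Galphaf, a G protein subunit, at 6.23 against 52.5 CPM, Vps52, a vesicle tethering subunit, at 11 against 92.1 CPM, betaNACtes6 at 6.73 against 54.1 CPM and PCNA2, a PCNA paralog, at 5.6 against 44.8 CPM. Of 15 such genes, 6 had a WT level nearer to the sa mutant than to the Tektin-C-labelled libraries on the log2 scale. Among numbered genes CG11700 had the highest level, at 202 and 193 CPM in the Tektin-C-labelled libraries and 1917 and 1904 CPM in the sa mutant, 9.7-fold (95% interval 9.5 to 9.91) lower, and CG31380, CG8852, CG14182 and CG42828 stood at 6.5 against 105 CPM, 6.84 against 102 CPM, 2.94 against 40.1 CPM and 7.38 against 82 CPM. The P450 family as a whole, looked at afterwards, was lower in 34 of 82 and higher in 8 (49 and 5 with library size alone).

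Position and gene structure were tabulated by fold class. Of X-linked genes, 90 of 2068 (4.35%) were at least 8-fold higher, against 9.32% to 12.8% on the 4 large autosomal arms. With library size alone the shares were 1.93% on the X and 5.32% to 7.73% on those arms, so the order was the same. On the X, 28.1% of genes were at least 2-fold lower, against 21.6% to 23.7% on the large autosomal arms. On the Y chromosome 5 of 23 genes (21.7%) were at least 8-fold higher, but with library size alone it was 1 gene (4.35%), a share below those of the large autosomal arms. Among protein-coding genes 37.1% of the 970 that were at least 8-fold higher had 1 exon, against 8.36% of those within 2-fold, and their median exonic length was 1173 bases, against 2227. The genes at least 8-fold lower were short too, with a median of 1348.5 bases and 16 of 100 protein-coding genes with 1 exon. Of 1494 noncoding RNA genes 355 (23.8%) were at least 8-fold higher, against 970 of 11725 protein-coding genes (8.27%). By kind, it was 26.6% of 1103 long noncoding RNAs and 16.8% of 364 antisense RNAs, and the antisense values are uncertain without the strand setting. These counts describe the genes and were not tested.

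**Figure D4:**
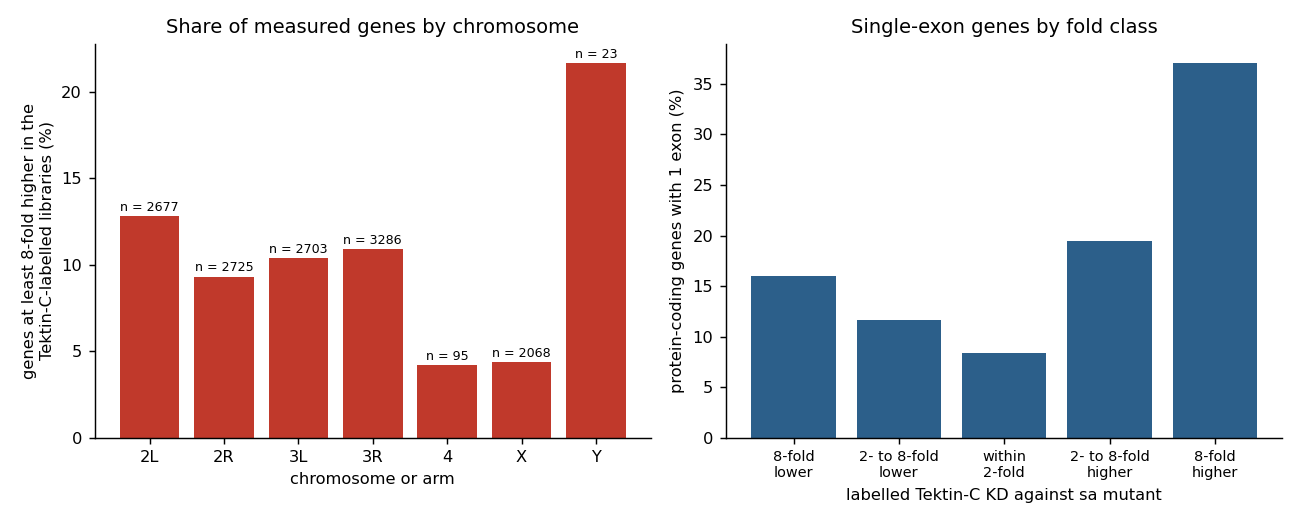
Left, share of measured genes that were at least 8-fold higher in the Tektin-C-labelled libraries than in the sa mutant, by chromosome or arm, with the number of genes over each bar. Right, share of protein-coding genes annotated with 1 exon, by fold class. The X chromosome (4.35%) lies below the large autosomal arms, and the share of single-exon genes is 37.1% in the class at least 8-fold higher, 16% in the class at least 8-fold lower and 8.36% within 2-fold.

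Whole testes bring other cells and adjoining tissue. Of 16 markers of hub and cyst cells, the somatic cells of the testis, 3 were higher and 1 was lower (2 and 5 with library size alone), and 12 were within 2-fold, with eya, a cyst cell marker, at 53 against 52.2 CPM and tj, another, at 3.9 against 5.04 CPM. Their sum was 643 to 646 CPM in the Tektin-C-labelled libraries and 602 to 608 CPM in the sa mutant. The exceptions were upd1, the hub ligand of the JAK-STAT pathway, at 5.03 against 0.434 CPM, so, a cyst cell transcription factor gene, at 40.6 against 9.52 CPM and ImpL2 at 7.17 against 3.16 CPM, which were higher, and Sox102F at 9.52 against 21.8 CPM. Of 18 markers of the muscle sheath 15 were within 2-fold and 3 were higher (median 0.13, or -0.54 with library size alone, when 2 were higher and 3 lower), and the muscle myosin gene Mhc stood at 176 against 165 CPM. The actin gene Act87E stood apart at 939 against 113 CPM. The sum of this list was 2267 to 2288 and 1344 to 1358 CPM.

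Accessory gland transcripts, which come from an organ that adjoins the testis, were present in both groups and unequal. Of 25 markers 22 were lower in the Tektin-C-labelled libraries (25 with library size alone) and none was higher. Their sum was 619.7 to 625 CPM there, 1685 to 1713 CPM in the sa mutant and 57.1 to 59.1 CPM in WT, and none of the 25 was at 0 in either group. The seminal protein gene Mst57Db stood at 22.2 and 20.4 CPM in the Tektin-C-labelled libraries and 176 and 175 CPM in the sa mutant, 8.24-fold (95% interval 7.72 to 8.8) lower, Acp36DE at 341 against 668 CPM and SP, the sex peptide gene, at 1.64 against 10.6 CPM. Of 6 ejaculatory duct and bulb markers Est-6 was lower at 30.6 against 199 CPM (3 were lower with library size alone). In 13 measured fat body and antimicrobial genes 6 were lower (8 with library size alone) and none was higher, with sums of 819 to 827 and 601 to 609.6 CPM, and Yp2 at 0 in the Tektin-C-labelled libraries. Of 6 pigment and terminal epithelium markers 2 were higher and 2 lower (1 and 2 with library size alone), with the eye colour transporter gene w at 67.3 and 67.2 CPM in the Tektin-C-labelled libraries and 5.79 and 4.76 CPM in the sa mutant and bw, its partner, at 6.94 against 24.1 CPM. The labels give the Tektin-C-labelled flies a w background, so for w genotype and tissue cannot be told apart. Of 7 neuronal markers Rdl was higher and nSyb lower, at 3.78 against 1.24 CPM and 3.44 against 24.3 CPM, and the median of 0.50 became -0.16 with library size alone, when none was higher and 2 lower. The part of carried-over tissue in the results was not tested, apart from the levels given here, and the genes lowest in the Tektin-C-labelled libraries include 2 of the accessory gland list, Acp33A (3.23 against 37.9 CPM) and Mst57Db.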

How the data were processed

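Total RNA of whole testes was measured after ribosomal RNA depletion with a stranded kit, per the labels. The authors deposited unnormalized counts of reads for 17412 FlyBase gene identifiers. Trim Galore 0.4.1, STAR 2.5.1b and dm6 were used, per the submitters' processing notes. Which counter, strand setting and annotation were used, and how reads with several positions were treated, is not given in the sources used here. Symbols and coordinates came from Ensembl release 115, which holds 17138 of the identifiers and lacks 274.

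The 2 libraries of each group were checked against binomial counting and summed. Genes passing filterByExpr of edgeR 4.0.16 (R 4.3.3) over all 10 libraries were kept (13831), and TMM factors of the 5 summed samples scaled CPM (0.815 for the Tektin-C-labelled libraries, 1.29 for the sa mutant). Log2 folds used a prior count of 2. A gene was called at 2-fold, with no test, because a group was 1 sample. The interval level was 95% and a count of 0 was given 3 counts. The planned tests were run only as alternatives, with edgeR's quasi-likelihood test and DESeq2 1.42.0. The steps were tested on simulated counts.

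The compared libraries, the gene lists and the paralog pairs were chosen with earlier results of these data known. Named genes are those of the labels, the 15 with the largest fold in each direction at 16 CPM or more in the higher group under a full name other than that of a structural or mitochondrial RNA, the 5 largest numbered (CG) genes in each direction, up to 4 members of each list by size of fold (all members of lists of 10 or fewer), and both members of each pair. Families and further pairs said to be chosen afterwards were picked once values were seen, as were the few members named beyond this rule for a direction or a low fold. List members that matched no identifier were left out. Counts of lists under library size alone are given beside them where they moved.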

Additional observations from a re-analysis of the deposited data

How the results depend on the processing

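The counts of genes called kept within 1.5 times of their value under most settings, 66 of 70 recomputed counts. The exceptions were library size alone, which gave 6083 genes at least 2-fold lower, 781 at least 8-fold higher and 400 at least 8-fold lower, and a filter of CPM over 5 in at least 2 libraries, which left 10563 genes and 62 at least 8-fold lower. Genes at least 2-fold apart numbered 6882 with RLE factors, 7830 of 16513 genes with no low-count filter, 6592 of 13333 with only the 4 compared libraries in the scaling, 6916 with 645 structural RNA and mitochondrial genes left out, and 7095 with a prior count of 0.5. The quasi-likelihood test of edgeR and DESeq2, with the 2 libraries taken as replicates, gave 7009 and 6658 at an adjusted p under 0.05 and 2-fold, where the spread is between technical repeats. Leaving out 1 library at a time gave 6994 to 7066 genes at least 2-fold apart, 3717 to 3796 higher and 3198 to 3322 lower, 1327 to 1369 at least 8-fold higher and 137 to 178 at least 8-fold lower. The replicate block gave 7023 genes against 7009 without it. The numbers are shared between groups, but with 2 per group they are not shown by the labels to pair libraries. The log2 ratios of library 2 to library 1 correlated at 0.14 between the compared groups over 7795 genes, and at 0.096 to 0.17 over all pairs of groups. With library size alone the balance at 2-fold turned, from 3748 higher and 3261 lower to 2796 higher and 6083 lower, while under the other settings listed here more genes were higher than lower. Depth limits folds of genes near 0.0629 CPM, the level of 3 counts in the Tektin-C-labelled libraries, or 0.062 CPM in the sa mutant.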
